A study of Mus musculus with 9 samples.

Results

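Small leucine-rich proteoglycans are the subject of this report. They were taken as the non-control probes whose gene name in the scanner files was Dcn, Bgn, Lum, Fmod, Ogn, Omd, Aspn, Prelp, Podn or Kera. Each of the 10 genes had 1 probe, so 10 probes of 39429 and 10 genes of 31709 were described.

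The study asked how gene expression in the mouse retinal pigment epithelium (RPE), the pigmented layer behind the retina, differs from that of its neighbours, the choroid (CH, the vascular and pigmented connective tissue behind the RPE) and the photoreceptors (PR). Each tissue was cut by laser from frozen sections of eyes of female C57BL/6 mice (substrain C57BL/6JOlaHsd in the study's methods), with 1 whole eye per sample and 3 samples per tissue. The labels give an age of 6 months within 2 weeks for all samples, and the study's methods give a slightly younger age. RNA of each sample was amplified, labelled with Cy5 and hybridised to an Agilent array beside 1 common Cy3-labelled reference, made from RPE and choroid RNA of mice of the same strain, sex and labelled age. All 9 arrays carried the dyes in this orientation, so a constant dye effect of a probe is part of every ratio but cancels in a difference between tissues. A channel effect that changes with the signal does not cancel. Values are log2 ratios of tissue (Cy5) over reference (Cy3), in which 0 means as much signal as the reference. No labels tie samples of different tissues to 1 mouse.

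Small leucine-rich proteoglycans are secreted proteins built from a curved stack of leucine-rich repeats. Most bind fibrillar collagen and set the width and spacing of fibrils, and several bind growth factors of the TGF-beta family. Class I holds decorin (Dcn) and biglycan (Bgn), which carry chondroitin or dermatan sulfate chains, and asporin (Aspn), which carries none. Class II holds lumican (Lum), fibromodulin (Fmod), keratocan (Kera), osteomodulin (Omd) and the basement membrane anchor protein Prelp, of which most can carry keratan sulfate. Osteoglycin (Ogn, also called mimecan) belongs to class III and podocan (Podn) to class V. In the eye these proteins are best known from the corneal stroma and the sclera, and the choroid has a collagenous stroma of its own.

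Of these genes, 8 lie in 3 groups of neighbours. On chromosome 10 the order is Dcn, Lum, Kera and then the related gene Epyc, and the probes of Dcn (chr10:96980233-96980292), Lum (chr10:97035210-97035269) and Kera (chr10:97076230-97076289) spanned 96 kb of mouse build mm9. On chromosome 13 the related gene Ecm2 is followed by Aspn, Omd and Ogn, and the probes of Aspn (chr13:49662479-49662538), Omd (chr13:49687847-49687906) and Ogn (chr13:49719549-49719608) spanned 57.1 kb. On chromosome 1, next to Optc, the probes of Prelp (chr1:135806855-135806914) and Fmod (chr1:135943998-135944057) lay 137 kb apart. Podn (chr4:107687484-107687543) and Bgn (chrX:70738554-70738613) stand alone. No mm9 annotation was used here, so the exon or untranslated region under each probe is not given.

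From RPE to choroid the 3 neighbours on chromosome 13 stepped by 1.07 (Aspn, under the fold for a call), 2.29 (Omd, called) and 0.17 (Ogn, not called) in log2. Their promoters are shown as a description, and any link to these steps was not tested. The RefSeq promoter table (build GRCm38.p6) matched 8 of the 10 genes; Dcn and Lum had no match. The 250 bases before the start are printed 5′ to 3′ on the strand of the gene, which is the plus strand for all 3. Capitals mark tataaa and ccaat, both searched on both strands, so that tttata and attgg are the same motifs read on the other strand.
Aspn, chr13:49544193-49544442: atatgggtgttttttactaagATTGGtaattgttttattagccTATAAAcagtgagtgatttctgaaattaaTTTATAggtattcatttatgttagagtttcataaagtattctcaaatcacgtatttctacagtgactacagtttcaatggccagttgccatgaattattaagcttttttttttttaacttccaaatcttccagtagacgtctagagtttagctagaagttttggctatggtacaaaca
Omd, chr13:49582212-49582461: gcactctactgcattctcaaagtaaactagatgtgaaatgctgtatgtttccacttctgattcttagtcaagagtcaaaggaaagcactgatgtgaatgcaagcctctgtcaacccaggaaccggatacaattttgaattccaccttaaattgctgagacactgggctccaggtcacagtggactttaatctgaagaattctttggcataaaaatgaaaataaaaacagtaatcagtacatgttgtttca
Ogn, chr13:49607765-49608014: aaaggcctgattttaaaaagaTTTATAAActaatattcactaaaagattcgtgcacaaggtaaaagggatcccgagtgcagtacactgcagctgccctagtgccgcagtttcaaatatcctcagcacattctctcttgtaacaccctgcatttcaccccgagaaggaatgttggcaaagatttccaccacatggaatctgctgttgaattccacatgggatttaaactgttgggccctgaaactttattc

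Over 32851 promoters of this length, 12.4% held tataaa and 33.8% held ccaat in either direction. Aspn held tataaa 2 times and ccaat 1 time, Ogn held 2 overlapping matches to tataaa on opposite strands, and Omd held neither. The matches to tataaa lay 173 bases or more before the start. The share of G and C was 30% for Aspn, 38.4% for Omd and 42% for Ogn.

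Dcn, Lum, Prelp and Omd were higher in the choroid than in the RPE, while the other 6 small leucine-rich proteoglycans were not called between these tissues. All but Kera were lower in the photoreceptors than in the choroid. A gene was called where its probe passed a fold change of 2.5 with an adjusted p below 0.01 (limma, Benjamini-Hochberg over all 39429 probes). By this rule 4 of 10 genes were higher in choroid than in RPE, against 1.82% of all genes on the array. Between RPE and PR, 8 of 10 were higher in RPE, against 11.3% of all genes, and the others were Bgn and Kera. Between choroid and PR, 9 of 10 were higher in choroid, against 13.2% of all genes, with Kera the exception. None was called in the other direction, where the shares of all genes were 0.218% for RPE over choroid, 5.67% for PR over RPE and 6.85% for PR over choroid. The 3 comparisons share arrays. The median log2 difference over the 10 genes was 0.92 for choroid minus RPE, 2.19 for RPE minus PR and 3.85 for choroid minus PR, and over all probes it was -0.04, -0.01 and -0.05. In these bulk samples, fewer cells that make a transcript and less RNA per cell cannot be told apart.

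**Figure D1:**
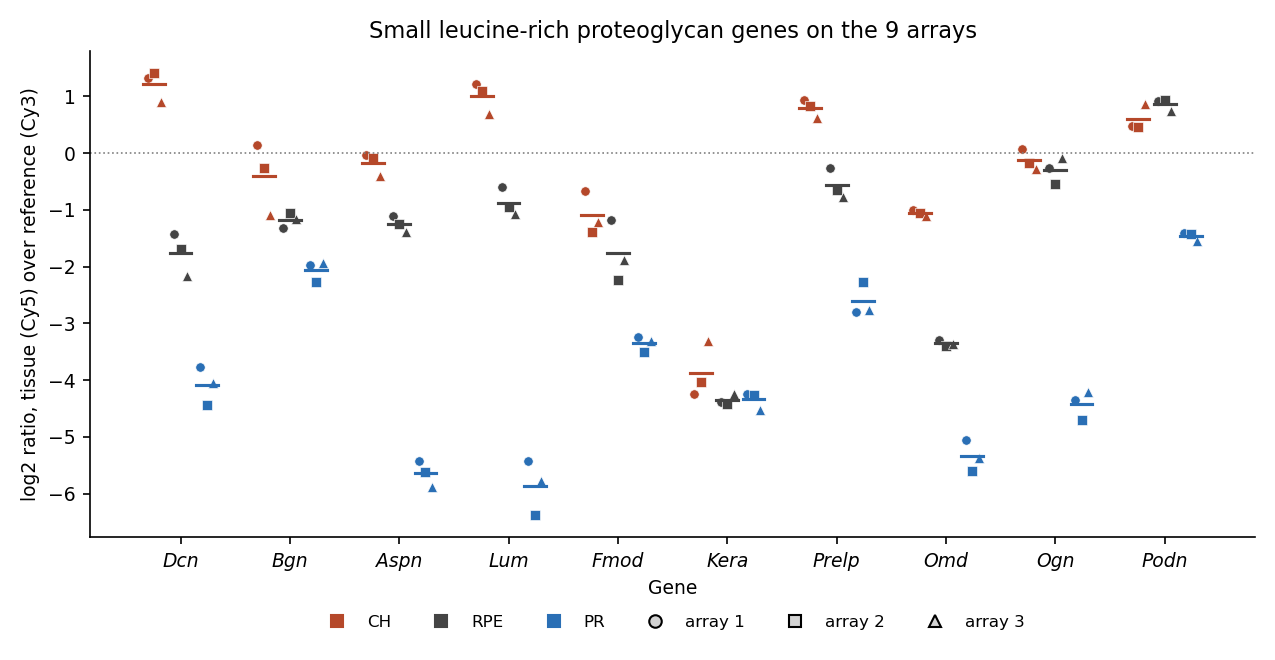
Log2 ratio of tissue over reference for the 10 genes on the vertical axis, 1 point per array (circle, square and triangle for arrays 1, 2 and 3 of a tissue, which are not paired between tissues), with the tissue's mean as a line. Dcn, Lum, Prelp and Omd step down from CH to RPE to PR without overlap, Ogn and Podn lie close together in CH and RPE, and Kera is near -4 in all 3 tissues.

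The 3 class I genes separated the tissues by different amounts. Decorin, the best known collagen fibril regulator of the family, gave log2 ratios of 1.32, 1.41 and 0.90 on the choroid arrays, -1.42, -1.69 and -2.17 on the RPE arrays and -3.77, -4.44 and -4.05 on the PR arrays. The tissues did not overlap. The means were 1.21 ± 0.27 in choroid, -1.76 ± 0.38 in RPE and -4.09 ± 0.34 in PR (SD, n = 3 each). The Cy5 signal of Dcn was marked saturated on all 3 choroid arrays, so only a bound on the fold holds there.

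The fitted difference for Dcn between choroid and RPE was 2.97 (95% confidence interval 2.46 to 3.48, limma adjusted p = 9.23e-05), and from the Cy5 channel the choroid was at least 2.27-fold higher. A bound of this kind compares mean log2 Cy5 signals after loess and quantile scaling of the average intensity. The choroid was at least 9.71-fold higher than PR (fitted log2 difference 5.29, limma adjusted p = 4.3e-08). The RPE exceeded PR by 2.33 on the log2 scale (limma adjusted p = 1.58e-05), with no array saturated in either tissue.

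The reference channel of Dcn also differed between tissues, although the reference RNA was the same on every array. The Cy3 signal of Dcn was 71830, 59180 and 80130 on the choroid arrays, 247800, 263600 and 278800 on the RPE arrays and 363300, 426100 and 337300 on the PR arrays. The Cy3 signal was thus lowest where the Cy5 signal (592500 to 641300 in choroid, 31450 to 76670 in PR) was highest. On the log2 scale after normalization the Cy3 channel of Dcn was lower by a difference of -1.79 for choroid minus RPE, while 95% of all probes lay between -0.46 and 0.36, and the Cy5 channel alone differed by 1.18. The measured difference of 2.97 in the ratio is this Cy5 difference minus the Cy3 difference, so the Cy3 channel made up the larger part. With the choroid spots saturated the Cy5 difference is a lower bound, so the division without saturation cannot be read. For choroid minus PR the Cy3 difference was -2.02, while 95% of all probes lay between -0.50 and 0.39. The Cy5 channel alone differed there by 3.28, against 5.29 in the ratio. What moved the Cy3 signal was not tested.

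Biglycan, the close relative of decorin, gave 0.14, -0.26 and -1.09 in choroid, -1.33, -1.06 and -1.16 in RPE and -1.97, -2.27 and -1.94 in PR. Choroid array 3 lay inside the range of the RPE arrays, and the PR arrays were below all others. The choroid mean of -0.40 ± 0.63 had the widest spread of any gene and tissue here (SD, n = 3), and its difference from RPE was 0.78 (0.19 to 1.36, limma adjusted p = 0.0598). Bgn exceeded PR by 1.65 in choroid (limma adjusted p = 0.000374) and by 0.88 in RPE (limma adjusted p = 0.0181, not called).

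Asporin gave -0.03, -0.09 and -0.41 in choroid and -1.10, -1.25 and -1.39 in RPE, and -5.42, -5.62 and -5.89 in PR, where it was not well above background on any array. Choroid and RPE did not overlap, and their difference of 1.07 (0.74 to 1.40) had a limma adjusted p of 0.00109 but a fold of 2.10, under the fold of 2.5. Aspn was at least 34.3-fold higher in choroid (limma adjusted p = 3.85e-09) and at least 16.7-fold higher in RPE (limma adjusted p = 1.67e-08) than in PR.

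Among the 5 class II genes, Lum, Prelp and Omd were called between choroid and RPE, Fmod against PR only, and Kera in no comparison. Lumican, a main keratan sulfate proteoglycan of the cornea that is also made by fibroblasts elsewhere, gave 1.22, 1.10 and 0.69 in choroid, -0.60, -0.96 and -1.08 in RPE and -5.42, -6.38 and -5.78 in PR. The tissues did not overlap. Lum was 3.69-fold higher in choroid than in RPE (log2 1.88, 1.34 to 2.42, limma adjusted p = 0.000771), 31.6-fold higher in RPE than in PR (limma adjusted p = 1.29e-07) and 116-fold higher in choroid than in PR (limma adjusted p = 1.28e-08). Its Cy3 reference signal also moved, from 37430 to 41490 on choroid arrays over 59100 to 62080 on RPE arrays to 71890 to 80200 on PR arrays. The Cy3 difference of -0.48 for choroid minus RPE lay just outside the central 95% of probes, and the Cy5 channel alone differed by 1.40. For choroid minus PR the Cy3 difference was -0.72, outside the central 95% (-0.50 to 0.39), and the Cy5 channel alone differed by 6.14, against 6.86 in the ratio.

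Osteomodulin, first known from mineralised tissues, varied little within choroid and within RPE. Its log2 ratios were -1.01, -1.06 and -1.12 in choroid, -3.30, -3.39 and -3.36 in RPE and -5.06, -5.60 and -5.37 in PR, where array 2 was not well above background. The SD was 0.05 in choroid and 0.05 in RPE (n = 3 each). Omd was 4.89-fold higher in choroid than in RPE (log2 2.29, 2.00 to 2.58, limma adjusted p = 3.4e-05) and 3.98-fold higher in RPE than in PR (limma adjusted p = 8.76e-07). The step from choroid to RPE lay in the tissue channel, with 2.31 in Cy5 and 0.02 in Cy3.

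Prelp, which links collagen to heparan sulfate of basement membranes, gave 0.94, 0.84 and 0.62 in choroid, -0.25, -0.64 and -0.78 in RPE and -2.80, -2.27 and -2.77 in PR. The tissues did not overlap. Its 2.56-fold difference between choroid and RPE (log2 1.36, 0.96 to 1.76, limma adjusted p = 0.000873) was just over the fold of 2.5, and the call was lost without choroid array 1 (log2 1.29), without RPE array 2 (1.32) and without RPE array 3 (1.25). Between RPE and PR it differed 4.16-fold (limma adjusted p = 6.59e-06) and between choroid and PR 10.7-fold (limma adjusted p = 1.54e-07). Both channels of Prelp were low on array 2 of each tissue, all on 1 slide, with Cy3 signals of 1303 to 1585 against 3953 to 4663 on the other arrays. The ratio of these arrays stayed within or near that of their tissue.

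Fibromodulin, a regulator of early fibril assembly, gave -0.67, -1.40 and -1.21 in choroid, -1.18, -2.23 and -1.89 in RPE and -3.24, -3.50 and -3.31 in PR. Choroid and RPE overlapped and differed by 0.68 (0.09 to 1.26, limma adjusted p = 0.0974), and the PR arrays were below all others. Fmod was 3.00-fold higher in RPE than in PR (limma adjusted p = 0.000569), a call that was lost without RPE array 1 (log2 1.29) and with slide as a block (log2 1.35, limma adjusted p = 0.0114). It was 4.80-fold higher in choroid than in PR (limma adjusted p = 4.14e-05).

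Keratocan, which is known as a product of corneal keratocytes, stood apart from the others. Its log2 ratios were -4.25, -4.04 and -3.32 in choroid, -4.38, -4.42 and -4.24 in RPE and -4.24, -4.26 and -4.52 in PR. Its Cy5 signal was well above background on 2 of 3 choroid arrays and on no RPE or PR array. The reference channel was well above background on all 9 arrays, at 2801 to 3206 against Cy5 signals of 169.9 to 504.1. The choroid mean exceeded that of RPE by 0.48 (0.01 to 0.95, limma adjusted p = 0.14) and that of PR by 0.47 (limma adjusted p = 0.0851). From the mean Cy5 signals the bounds would be 1.19-fold and 1.14-fold. Neither difference was called and the arrays overlapped, so these bounds do not establish a higher choroid signal. No fold can be given between RPE and PR. The Kera probe was printed 10 times on each array, and 8 of these 90 spots carried outlier marks and were left out. The spots of 1 array varied with an SD of 0.08 to 0.20, less than the gap between choroid array 3 and the other choroid arrays.

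**Figure D2:**
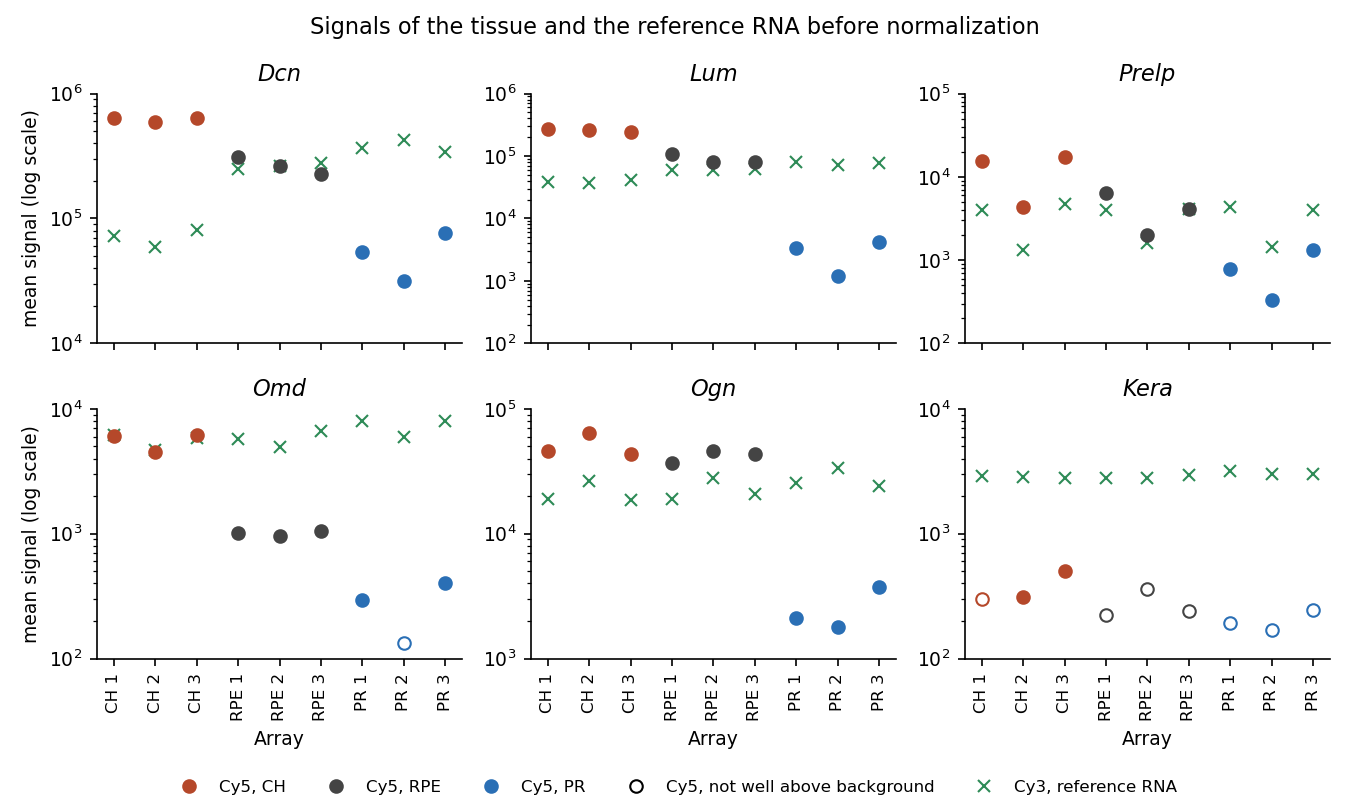
Mean signal on a log scale, 1 array per position, for the tissue RNA (Cy5, circles, open where not well above background) and the common reference RNA (Cy3, crosses) of 6 genes. The reference signal of Dcn rises from 59180 to 80130 on CH arrays to 337300 to 426100 on PR arrays while that of Kera stays between 2801 and 3206, and both channels of Prelp drop on array 2 of each tissue.

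Osteoglycin and podocan did not take the step from RPE to choroid that was called for the 4 genes above. Osteoglycin, a small proteoglycan also found in bone and vessel walls, gave 0.07, -0.17 and -0.28 in choroid, -0.26, -0.54 and -0.09 in RPE and -4.36, -4.71 and -4.21 in PR. Choroid and RPE overlapped, with a difference of 0.17 and an interval of -0.20 to 0.53 (limma adjusted p = 0.526), which lies below the fold of 2.5 on both sides. Ogn was 17.5-fold higher in RPE than in PR (limma adjusted p = 3.71e-08) and 19.7-fold higher in choroid than in PR (limma adjusted p = 1.98e-08). The intervals for choroid minus RPE of Ogn and of its chromosome 13 neighbour Omd (2.00 to 2.58) were apart, although the Ogn and Omd probes lay 31.7 kb from each other.

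Podocan, a proteoglycan of vessel wall and kidney, gave 0.48, 0.46 and 0.86 in choroid, 0.91, 0.94 and 0.74 in RPE and -1.41, -1.43 and -1.55 in PR. Choroid and RPE overlapped. It was the only member with a mean lower in choroid than in RPE, by a difference of -0.26 (-0.54 to 0.02, limma adjusted p = 0.175), and this difference was 0.00598 when arrays were centred on their median in place of loess. Podn was 5.01-fold higher in RPE than in PR (limma adjusted p = 2.34e-07) and 4.18-fold higher in choroid than in PR (limma adjusted p = 3.93e-07).

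**Figure D3:**
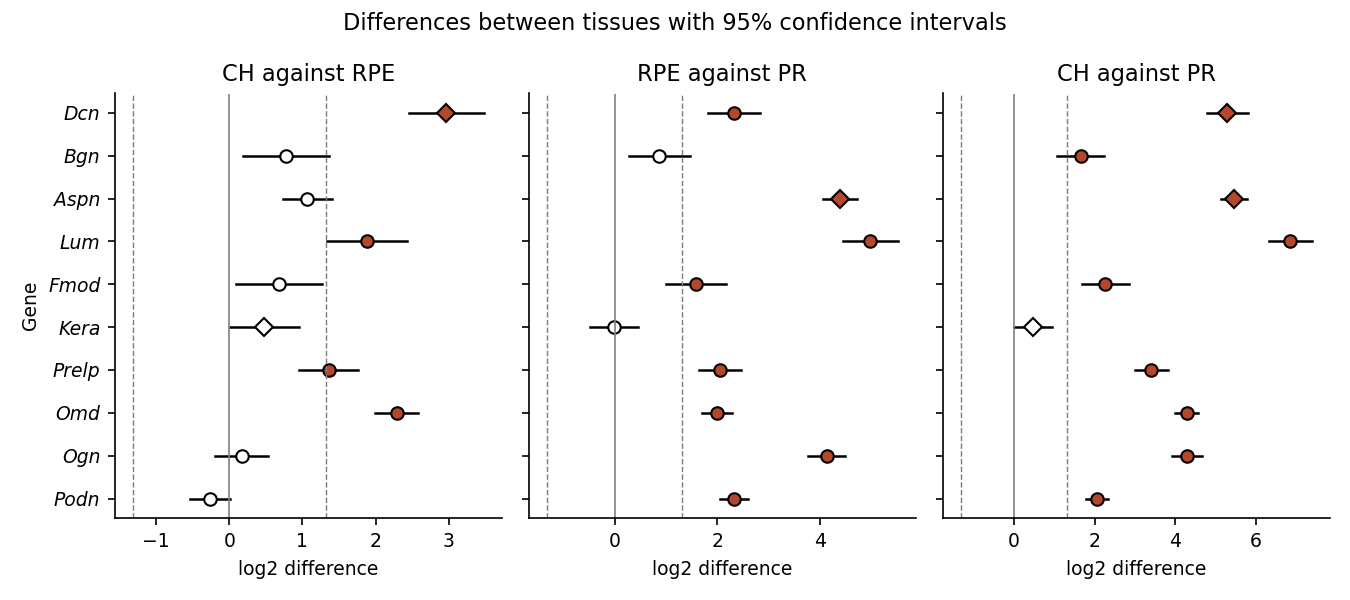
Fitted log2 differences for the 3 comparisons with 95% confidence intervals (horizontal axis; positive is higher in the tissue named first). Filled symbols are called, diamonds have only a bound on the fold, and dashed lines mark a fold of 2.5. The differences for CH against RPE run from -0.26 for Podn to 2.97 for Dcn, and those for CH against PR from 0.47 for Kera to 6.86 for Lum.

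The order of tissues was choroid, RPE, PR by the means of 8 of the 10 genes, with Podn (RPE, choroid, PR) and Kera (choroid, PR, RPE) the others. Neighbouring tissues in this order were not separated by a call for Bgn, Aspn, Fmod, Ogn and Podn between choroid and RPE, for Bgn between RPE and PR, or for Kera anywhere. All choroid arrays were above all RPE arrays for 5 genes (Dcn, Aspn, Lum, Prelp and Omd), a pattern that 17.9% of all probes with complete values showed. All RPE arrays were above all PR arrays for 9 genes, against 28.8% of probes, and all choroid arrays above all PR arrays for 9 genes, against 28% of probes.

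The choroid calls changed with the channel and scaling used. With the Cy5 channel alone, where quantile scaling also replaced loess, 0 of the 10 genes were called between choroid and RPE and 5 in place of 8 between RPE and PR. Between choroid and RPE that setting gave Dcn 1.27 (0.0064, a lower bound since its choroid spots were saturated), Lum 1.46 (0.024), Prelp 1.47 (0.278) and Omd 2.66 (0.0113) as log2 difference and limma adjusted p. The differences of Prelp and Omd were no smaller than in the ratio, and their limma adjusted p was higher. In the submitters' own processed table, which follows the Cy5 channel, 1 gene, Omd, was called (log2 2.34, limma adjusted p = 0.00699), and Dcn had no value on the choroid arrays of that table. The direction of these 4 genes was the same in each setting that gave a value. The share of all genes called was counted under the reported settings only, so these lower counts have no such share beside them.

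The arrays lay on 3 slides, which coincide with the scans in the file headers, and choroid and RPE shared slides. Within the slide that held 2 arrays of each, choroid minus RPE was 2.90 for Dcn, 1.79 for Lum, 1.30 for Prelp and 2.27 for Omd. On the slide that held 1 of each it was 3.11, 2.06, 1.48 and 2.34. With slide as a block all 4 remained called, with log2 differences of 2.97, 1.88, 1.36 and 2.29. PR shared a slide with the other tissues on 1 array only, where RPE minus PR was 2.75 for Dcn, 5.42 for Lum, 1.27 for Fmod and 4.17 for Ogn.

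Markers of other cell types moved with the same tissues. Of 10 fibroblast markers, 6 were called higher in choroid than in RPE (Pdgfra, Pi16, Mfap5, Fbln1, Gsn and Fn1). Thy1, Fbln2 and Clec3b were higher without a call, and Dpt was lower by a difference of -0.28, also not called. The mean log2 ratio of the 10 was 0.16 to 0.49 on choroid arrays, -1.24 to -0.97 on RPE arrays and -3.13 to -2.98 on PR arrays. The summed Cy5 signal of these 10 was 345000 to 431000 in choroid, 127000 to 165000 in RPE and 29800 to 31600 in PR. For 9 markers of cartilage and tendon, tissues like the sclera that lies behind the choroid, 1 (Comp, at 2.81) was called higher in choroid. Their mean log2 ratio was -0.06 to 0.09 in choroid, -0.71 to -0.53 in RPE and -2.28 to -2.16 in PR. The summed Cy5 signal was 112000 to 132000 in choroid against 114000 to 131000 in RPE. This sum joins markers of both directions, with Sox9 (-0.81), Scx (-0.22) and Thbs4 (-0.13) lower in choroid than in RPE and the rest higher. Cilp was not well above background on any RPE or PR array, nor Acan on any PR array. Melanocyte and pigment cell markers (3 of 5 called higher in choroid than in RPE), Schwann cell markers (2 of 5) and pericyte and smooth muscle markers (2 of 8) were among them, with mean log2 ratios of 0.48 to 0.76, 1.19 to 1.39 and 1.07 to 1.71 in choroid against -0.70 to -0.15, 0.39 to 0.55 and 0.40 to 0.69 in RPE. Of the first list, Tyr was lower in choroid than in RPE by a difference of -0.68, under the fold. Of the second, the brightest Mbp probe was also lower (-0.46, with 0.91 on another probe). The summed Cy5 signals of the 3 lists were 1090000 to 1230000, 178000 to 207000 and 249000 to 389000 in choroid against 731000 to 885000, 108000 to 124000 and 155000 to 212000 in RPE. The first sum holds Tyrp1, saturated on all 3 choroid arrays, and Dct, saturated on all choroid and RPE arrays, so it is a lower limit in both tissues. No marker of endothelium (8), skeletal muscle (8) or immune cells (6) was called between choroid and RPE. Of 4 corneal markers none was called in any comparison and all were well above background on every array, with mean log2 ratios of -2.97 to -2.66 in choroid. The part of these cells in the proteoglycan values was not tested.

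The labelled tissues could be checked by their own markers. All 8 rod markers were called higher in PR than in RPE, and 7 of 8 RPE markers were called higher in RPE than in PR, while Best1 was well above background on only 1 of 3 RPE arrays. In choroid, too, 7 of 8 RPE markers were called higher than in PR. Between choroid and RPE, 6 of 8 were called higher in RPE. RPE markers were also present in the choroid, with mean log2 ratios of 0.17 to 1.03 there and 1.74 to 2.12 in RPE. Rpe65, Rgr, Ttr and Rdh5 were saturated on all 3 RPE arrays. Ttr was saturated on 3 choroid arrays as well, Rgr and Rdh5 on 2 and Rpe65 on 1, so no fold between these tissues can be given for them. Choroid array 3 had the highest mean of the 3 choroid arrays. The same array was the lowest of the choroid arrays for 7 of the 10 proteoglycan genes, and choroid array 1 was the highest for 7. Without choroid array 3 the 4 choroid calls remained. Markers of neighbouring cells were likewise present in the RPE samples. Endothelial markers had mean log2 ratios of 1.2 to 1.33 in RPE, against 0.928 to 1.61 in choroid. Rod markers had -0.817 to 0.0807 in RPE, -1.42 to -0.574 in choroid and 3.54 to 3.77 in PR, where Gnat1, Sag and Prph2 were saturated on all arrays. A gene called higher in RPE than in PR therefore cannot be assigned to RPE cells alone. The part of admixed RPE in the choroid values, and of vessel and rod RNA in the RPE values, was not tested.

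Of 7 other members of the family that were measured, 1 was called higher in choroid than in RPE, against 1.82% of all genes. Between RPE and PR, 2 were higher in RPE, against 11.3%, and between choroid and PR 3 were higher in choroid, against 13.2%. Chondroadherin (Chad), a cartilage matrix protein, was higher in choroid than in RPE by 1.52 (limma adjusted p = 0.000564) and than in PR by 2.01 (limma adjusted p = 7.66e-06). Epiphycan (Epyc), the neighbour of Kera, was at least 6.23-fold higher in choroid and at least 4.16-fold higher in RPE than in PR, where it was not well above background. Ecm2, the neighbour of Aspn, was higher in choroid by 3.99 and in RPE by 3.04 than in PR (limma adjusted p = 3.85e-08 and 3.04e-07), and its difference of 0.95 between choroid and RPE was under the fold. Both of these neighbours therefore had calls against PR and none between choroid and RPE. Opticin (Optc), a protein of the vitreous, had a wide spread, with 2.26 for RPE minus PR (limma adjusted p = 0.0297). Nyctalopin (Nyx), a synaptic protein of retinal bipolar cells, was lower in choroid than in PR by a difference of -0.61, Tsukushi (Tsku), a secreted signalling modulator, was higher by 0.69, and Podnl1 differed by 0.12, all under the fold.

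Genes that work with these proteoglycans were read from 8 lists, the 7 genes above among them, with 74 genes measured in all. Between choroid and RPE, 15 were called higher in choroid and 1 higher in RPE. Between RPE and PR the counts were 38 higher in RPE and 3 higher in PR, and between choroid and PR 51 and 5. In the same order, the shares of all genes were 1.82% and 0.218%, 11.3% and 5.67%, and 13.2% and 6.85%. Col6a3 had no probe under that name.

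**Figure D4:**
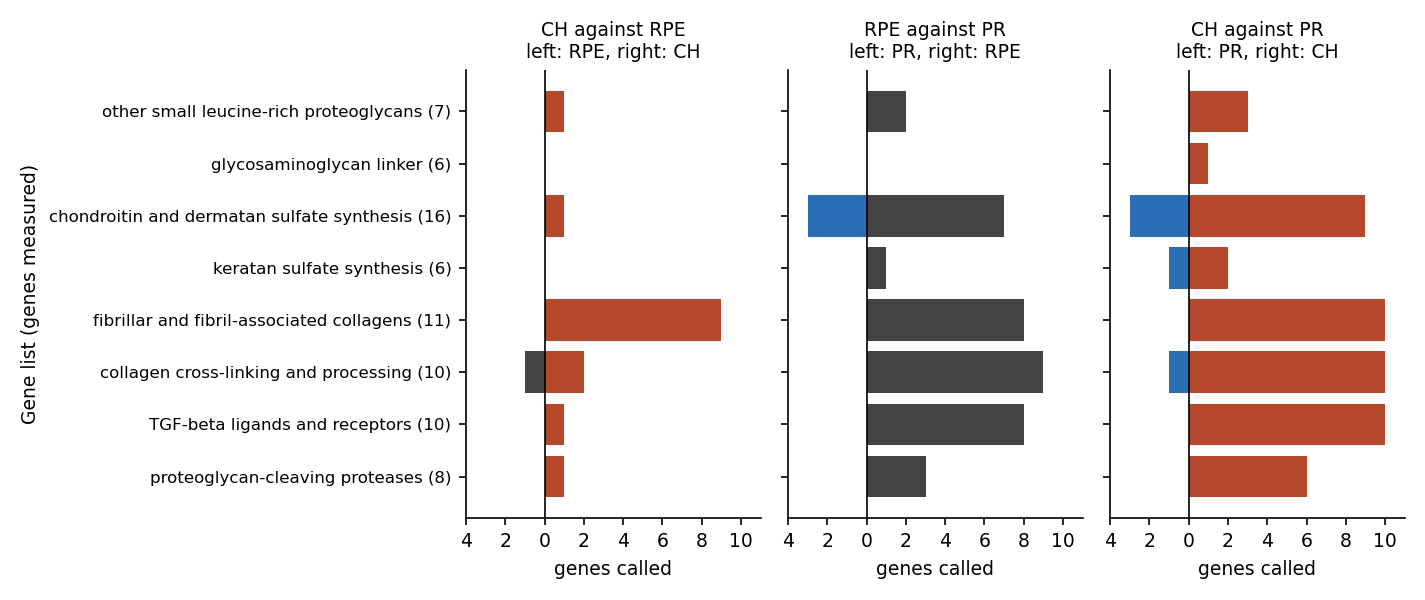
Number of genes called in each of the 8 lists (genes measured in brackets) for the 3 comparisons; bars to the right count genes higher in the first tissue and bars to the left genes higher in the second. For CH against RPE, 9 of the 15 genes called higher in CH were in the list of fibrillar and fibril-associated collagens. Of the linker, chondroitin sulfate and keratan sulfate lists 1 gene was called.

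The collagens to which the proteoglycans bind carried most of the choroid calls. Of 11 fibrillar and fibril-associated genes, 9 were called higher in choroid than in RPE, with a median log2 difference of 1.62. Type I collagen led, with Col1a1 at 3.62 (limma adjusted p = 3.09e-06) and Col1a2 at 2.94, beside Col12a1, which lies on the fibril surface, at 3.54. Against PR, 10 of 11 were higher in choroid and 8 in RPE. Col1a1 differed by 8.44 and 4.82 and Col3a1 by 5.68 and 3.93, Col1a2 was higher in choroid than in PR by 5.11, and Col5a2 was at least 4.8-fold higher in RPE than in PR.

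Genes that make the glycosaminoglycan chains moved in both directions. Of 16 genes for chondroitin and dermatan sulfate, 1 was called between choroid and RPE, the uronyl sulfotransferase Ust at 1.73. Against PR, 9 were higher in choroid, led by the epimerase Dsel at 3.84, the sulfotransferase Chst11 at 3.36 and Chst7 at a bound of at least 9.97-fold, and 3 were lower. Those lower in choroid than in PR were the sulfotransferase Chst3 at -3.03 and the chain-forming enzymes Chsy1 at -1.38 and Csgalnact2 at -1.34. The same 3 were lower in RPE than in PR (-2.84, -2.04 and -1.75), where 7 were higher, among them Chst11 (3.07), Csgalnact1 (2.82) and Chst7 (at least 5.79-fold).

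For the 6 genes of the glycosaminoglycan linker, none was called between choroid and RPE or between RPE and PR. Xylt2 was higher in choroid than in PR by 1.35 on 1 of its 2 probes (-0.16 on the other). For the 6 keratan sulfate genes none was called between choroid and RPE. The galactosyltransferase B4galt4 was higher than PR by 2.83 in choroid and 3.05 in RPE, the sulfotransferase Chst1 by 2.38 in choroid, and the 2 probes of B4galt1 disagreed for choroid minus PR (-1.93 called, 0.42 not).

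Most collagen processing enzymes were higher in choroid and in RPE than in PR. Of 10 genes, 2 were called higher in choroid than in RPE, the cross-linking oxidase Lox at 1.71 and the procollagen protease Adamts2 at 1.93 on 1 of its 2 probes, and the oxidase Loxl4 was higher in RPE (-1.54). Against PR, 9 were higher in RPE, led by the procollagen protease enhancer Pcolce at 4.995, Loxl1 at 4.00 and Loxl4 at 3.59. All 10 were higher in choroid than in PR by at least 1 probe, with Pcolce at 5.02, Adamts2 at 4.64 and Loxl1 at 4.33. Bmp1 was called in both directions by its 2 probes (2.18 and -1.46). Other probes of Adamts2 (-0.0006), Adamts14 (-0.03) and Loxl2 (lowest -0.24) did not show this difference. Adamts2 and Loxl2 also had a probe without a difference for RPE minus PR (0.02 and -0.02). The 9 genes higher in RPE than in PR include Bmp1 by 1 probe (1.35), while its other probe differed by -1.18.

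Among the TGF-beta ligands, receptors and latent binding proteins, the ligand Tgfb3 was the 1 gene of 10 called between choroid and RPE, at 2.01. All 10 were higher in choroid than in PR, among them the receptors Tgfbr3 (4.26) and Tgfbr2 (3.82) and Tgfb3 (3.36). Tgfbr1 counted by 1 of its 2 probes (1.96), with -0.36 on the other. Of these 10, 8 were higher in RPE than in PR, among them Tgfbr3 (5.01), the latent binding protein Ltbp3 (3.43) and Tgfbr2 (2.88). Of 8 proteases that can cut proteoglycans, the stromelysin Mmp3 was called higher in choroid than in RPE (2.20). Against PR, 6 were higher in choroid (Adamts9 2.95, Mmp3 2.59 and Adamts1 2.59 the largest) and 3 in RPE (Adamts9 2.498, Adamts1 1.83 and Mmp14 1.44).

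Of genes in none of the lists, those whose pattern over the 9 arrays was most like the mean of Dcn, Lum, Prelp and Omd were Dhrs2 (Pearson r = 0.9991), Mtmr11 (0.9987), Twist1 (0.9987), Bcl2a1d (0.9985) and Bcl2a1c (0.9985), out of 21290 candidates. The 9 points share 3 tissues, so the likeness is mostly that of 3 tissue means and is given as a description. Twist1, a transcription factor of mesenchymal cells, gave 0.59, 0.64 and 0.32 in choroid, -1.03, -1.03 and -1.16 in RPE and -3.16, -3.37 and -3.41 in PR. Dhrs2 stepped by 1.47 from RPE to choroid and by 1.86 from PR to RPE. Bcl2a1c and Bcl2a1d are near-identical copies of 1 gene family, so their probes may share signal.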

How the data were processed

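Per the file headers, the submitters scanned 9 two-channel Agilent arrays and deposited spot intensity values from Agilent Feature Extraction 9.5.3.1, with local background, processed signals, a log10 ratio and marks for saturation, background and outliers per spot. The study's methods give limma in R 2.14.0 for the analysis. The authors also deposited a table of log2 values, whose normalization steps are not given in the sources used here; set against the scanner values it followed the Cy5 channel.

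Mean Cy5 and Cy3 intensities were background-corrected here (normexp, offset 50) and normalized within arrays (loess). Control spots and 228 to 586 outlier spots per array were left out and spots of 1 probe averaged. Probes were named by accession or symbol through RefSeq where these matched (26055 probes through the accession, 3195 through the current symbol, 930 through a former one) and kept the file's name otherwise (9249). One limma 3.58.1 fit (R 4.3.3) over all 9 arrays gave the 3 comparisons for 39429 probes, with Benjamini-Hochberg adjustment, and a gene was called by at least 1 probe past a fold of 2.5 and an adjusted p of 0.01. The fit was tested on simulated data. Between 62.1% and 91.7% of probes were well above background in Cy5 per array, and 3 arrays per tissue limit the precision. Each sample is 1 eye, but no source used here says that the eyes came from separate mice, so p-values measure only the spread between these samples.

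The genes and lists were chosen with earlier results of these data known. A gene's brightest probe over the 9 arrays was reported. Named from each list were up to 3 called genes with the largest difference per direction and comparison, and, outside the lists, the 5 most like the mean profile of the called members.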

Additional observations from a re-analysis of the deposited data

How the results depend on the processing

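The counts and the 10 genes' differences were recomputed under 28 settings, of which 24 apply to single genes. Of the counts, 324 values under alternatives stayed within 1.5 times the reported count and 12 did not. For the proteoglycans higher in choroid than in RPE (4 as reported), the Cy5 channel alone gave 0 and the submitters' table gave 1, and for those higher in RPE than in PR (8) the Cy5 channel alone gave 5. For related genes higher in PR than in RPE (3), processed signals gave 5, the Feature Extraction log ratio 6, the Cy5 channel alone 5, a fold of 2 gave 5 and no fold threshold 7. For those higher in PR than in choroid (5), the slide block gave 2 and no fold threshold 10. Without a fold threshold, 33 related genes were higher in choroid than in RPE (15 as reported) and 6 higher in RPE (1). The shares of all genes were counted under the reported settings only, and the causes of these changes were not tested.

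For single genes, 687 values kept direction and call, 18 lost a call, 1 gained one and 7 changed sign. Those that changed sign were Podn for choroid minus RPE with median centring (0.00598) and Kera for RPE minus PR, with no background subtraction (0.12), with median centring (0.039) and in 4 of the 9 fits that left out an array (which ranged from -0.10 to 0.043), a gene that was not well above background there. Aspn gained its call between choroid and RPE with median centring (1.41). Beside those in the report, calls were lost by Omd for choroid minus RPE with the Feature Extraction log ratio (2.48, limma adjusted p = 0.0128), by Fmod for RPE minus PR with the same ratio (1.26), and with the Cy5 channel alone by Fmod (1.26), Prelp (1.87) and Omd (1.17) for RPE minus PR and Bgn for choroid minus PR (1.36). In the submitters' table Lum (1.45) and Prelp (1.42) lost theirs for choroid minus RPE and Prelp for RPE minus PR (2.06). Leaving out saturated spots removed Dcn from both comparisons with choroid.

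Samples of the 3 tissues carry the same replicate numbers. Deviations of same-numbered samples correlated at -0.07 to 0.16 for choroid and RPE, -0.02 to 0.29 for RPE and PR and -0.08 to 0.29 for choroid and PR, and those of other numbers at -0.31 to 0.25. The samples numbered 2 of all 3 tissues lay on 1 slide and correlated at 0.162, 0.234 and 0.288, but not every same-numbered pair was over 0.1, so the numbers were not taken as pairs. With the replicate number as a block, 4, 8 and 9 proteoglycans were called, as without it, and 16, 38 and 51 related genes in the same directions.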
